A study of Mus musculus with 12 samples.

Results

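The neuromuscular junction is the synapse at which a motor neuron excites a skeletal muscle fibre. This account follows accessible chromatin at 10 genes of its muscle side in C2C12 cells, a mouse myoblast line that can be differentiated into multinucleate myotubes. They encode the subunits of the muscle acetylcholine receptor (Chrna1, Chrnb1, Chrnd, Chrne and Chrng) and the agrin route that gathers the receptor under the nerve ending (Agrn, Lrp4, Musk, Dok7 and Rapsn). All peaks of the wild-type (WT) and Runx1 knockout (KO) lists were kept whose centre lay in the RefSeq gene body or within 10 kb of it. This gave 20 of the 34118 WT peaks and 15 of the 27187 KO peaks. No peak was counted at more than 1 of the genes.

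The study profiled open chromatin by ATAC-seq, in which the Tn5 transposase inserts sequencing adapters into accessible DNA. The labels list 12 samples in 4 groups of 3, and the peak lists used here come from the growth medium groups at day 0: WT cells and Runx1KO cells in medium with 20% FBS, collected near confluency. Runx1 is a DNA-binding factor of the RUNX family that muscle raises when it loses its nerve. How the knockout was made, and whether it is 1 clone, is not given in the sources used here. Samples at day 2 of differentiation medium were not analysed here. Each peak name carries the label of replicate 1 of its genotype, so every interval and value below comes from 1 library per genotype, without replicate error and without a test. Sequencing depth is unknown. A shared peak is one that overlaps a peak of the other list by at least 1 bp, and a specific peak is one that does not, as in the lists that the authors deposited.

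As background, agrin released by the nerve binds LRP4 on the muscle membrane, LRP4 activates the receptor kinase MuSK, and DOK7 binds and activates MuSK from inside the cell. Rapsyn, the product of Rapsn, then ties the acetylcholine receptors into clusters. The receptor is a pentamer of alpha, beta and delta subunits with a gamma subunit in fetal muscle, which is replaced by epsilon in adult muscle. Several of these genes are driven in muscle cells by E-boxes, the sites of MyoD family factors, and several are known for an N-box, a site of ETS factors that restricts transcription to the nuclei below the synapse.

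At the targeted gene, Runx1, the WT list held 19 peaks, of which 7 were WT specific (36.8%, exact Clopper-Pearson 95% interval 16.3 to 61.6), beside 27.3% of the whole WT list. The KO list held 12 peaks there, all shared (exact upper limit of the KO specific share 26.5%), beside 9.59% of the whole KO list. Both ranges include the share of the list. They cover counting error over peaks only and are not a test. Of the 6 myoblast markers other than Chrna1, which is itself one of the genes studied, 5 had a peak in the WT list, Myf5 being the exception, and Myod1 had 2 peaks in each list. The 4 motor neuron markers (Chat, Isl1, Mnx1 and Slc18a3) had no peak in either list. Over all protein-coding genes, 65.8% had a peak in either list. Among markers of other cell types, Sox10 and Ptprc had none, while S100b, Spi1, Pecam1 and Cdh5 had at least 1 peak in each list.

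The sequences before the annotated starts of 4 receptor subunit genes are shown first, because the peak of Chrna1 lies on its promoter, the peak of Chrnb1 begins at the edge of its promoter, and Chrng and Chrne have no peak there. They are RefSeq sequences of GRCm38.p6 from 250 bases before the start to the last base before it, written 5′ to 3′ on the strand of the gene. Capitals mark matches, on either strand, to an E-box (CANNTG), an N-box core (CCGGAA), an AP-1 site (TGANTCA) or a RUNX core (TGTGGT or TGCGGT). No match overlapped another.
Chrna1 (chr2:73580339-73580588, minus strand): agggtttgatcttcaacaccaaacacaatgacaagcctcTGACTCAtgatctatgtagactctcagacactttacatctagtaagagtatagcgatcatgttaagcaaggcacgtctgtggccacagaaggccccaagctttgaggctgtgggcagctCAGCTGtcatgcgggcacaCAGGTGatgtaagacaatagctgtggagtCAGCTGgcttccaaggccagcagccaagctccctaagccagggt
Chrnb1 (chr11:69795938-69796187, minus strand): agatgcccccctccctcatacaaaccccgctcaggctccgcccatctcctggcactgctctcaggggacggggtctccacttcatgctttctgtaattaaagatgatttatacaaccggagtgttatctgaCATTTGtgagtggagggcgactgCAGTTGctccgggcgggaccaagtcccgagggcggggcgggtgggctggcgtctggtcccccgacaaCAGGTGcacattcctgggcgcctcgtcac
Chrng (chr1:87205561-87205810, plus strand): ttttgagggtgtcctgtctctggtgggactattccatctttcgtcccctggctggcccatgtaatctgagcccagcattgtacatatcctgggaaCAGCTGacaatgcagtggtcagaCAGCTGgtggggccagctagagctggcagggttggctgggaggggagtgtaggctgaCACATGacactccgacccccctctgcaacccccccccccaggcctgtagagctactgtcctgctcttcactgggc
Chrne (chr11:70619195-70619444, minus strand): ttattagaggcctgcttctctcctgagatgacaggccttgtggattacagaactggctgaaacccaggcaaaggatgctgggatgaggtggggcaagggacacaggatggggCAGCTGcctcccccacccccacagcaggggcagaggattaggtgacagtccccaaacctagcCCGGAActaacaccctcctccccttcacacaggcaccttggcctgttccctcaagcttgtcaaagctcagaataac

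All 10 genes had a peak in each list, beside 65.8% of the 21627 protein-coding genes that had a peak in either list. The WT list held 4.24 peaks per 100 kb of gene and flanks at the 10 genes, and 2.28 per 100 kb over all protein-coding genes. In the KO list the values were 3.18 and 1.84 per 100 kb. A peak near several genes counts at each of them in the second value, which also includes genes without a peak. The windows were not matched for length: they came to 471 kb for the 10 genes and 1480307 kb for the 21627. Of the 20 WT peaks, 15 were shared and 5 were WT specific. They were 1 peak at Chrna1, 2 at Chrnb1, 1 at Musk and 1 at Dok7. All 15 KO peaks were shared. Each shared WT interval had exactly 1 KO partner, so the 15 regions open in both libraries were 15 pairs of intervals. The maps of the 10 genes show these pairs and the 5 additional WT peaks.

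**Figure D1:**
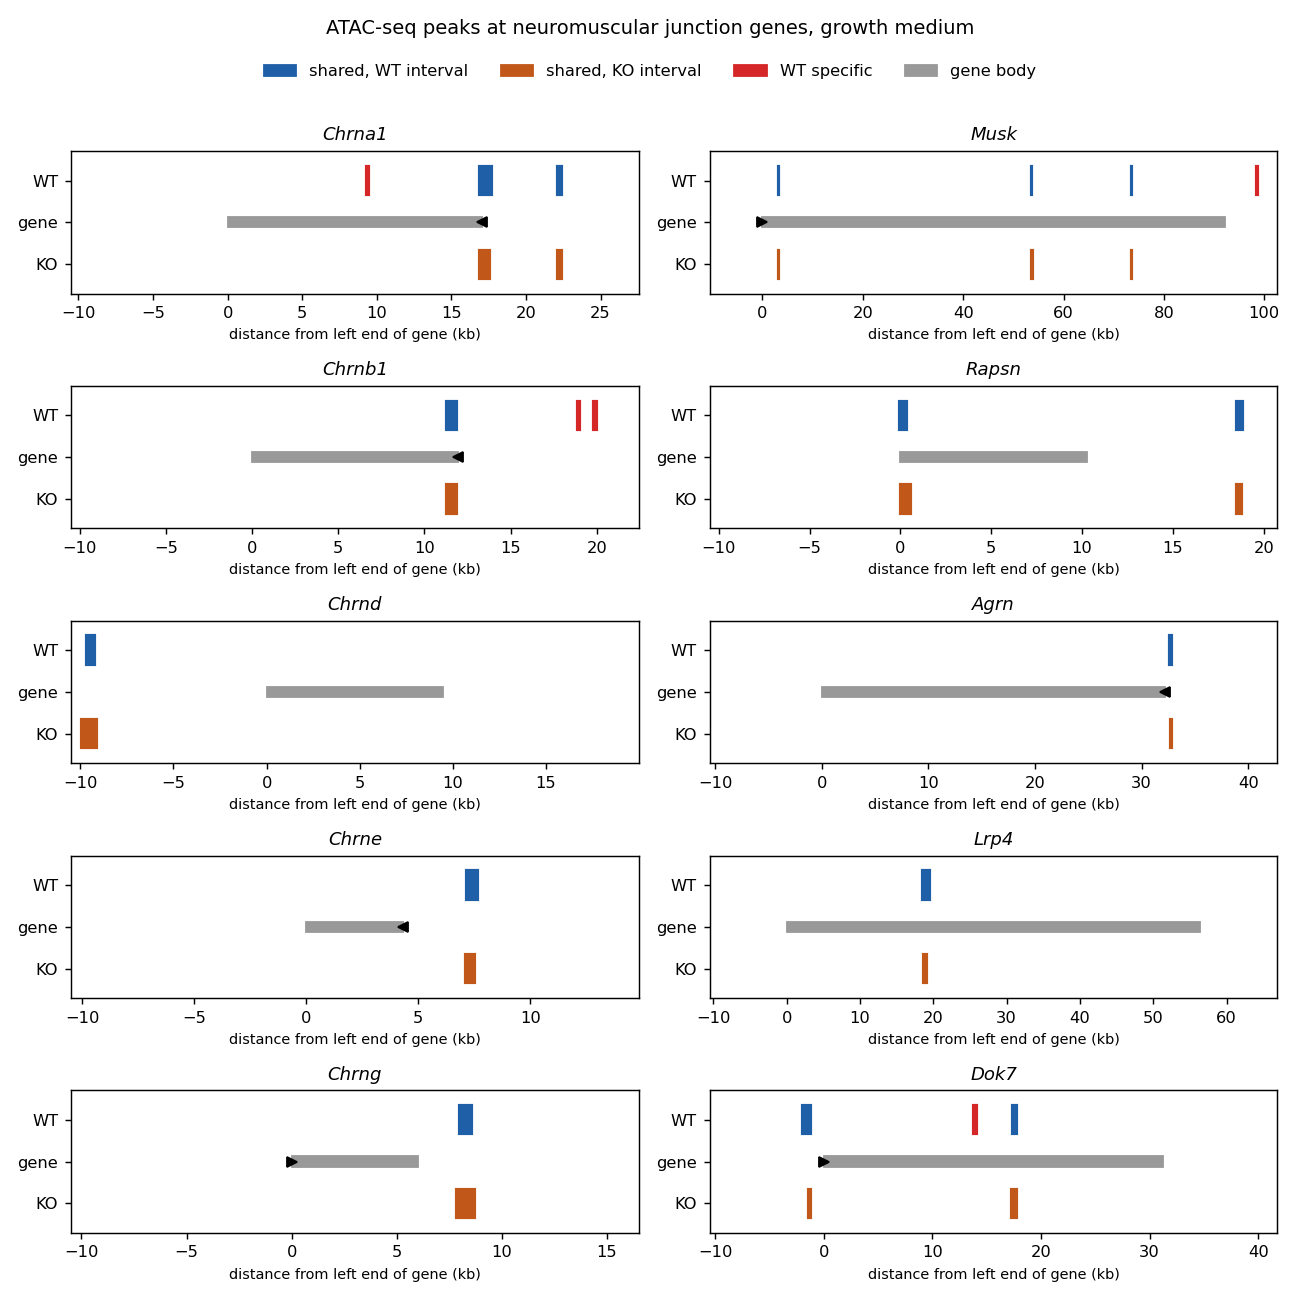
Peaks at the 10 genes, with the distance from the left end of the gene in kb on the x axis, WT intervals above and KO intervals below the gene body (grey), and WT specific peaks in red. Arrowheads mark the end at which transcription starts where the promoter table gives a strand, and narrow peaks are drawn at a minimum line width. The 5 red peaks lie at Chrna1, Chrnb1, Musk and Dok7, and no KO interval is without a WT interval.

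The WT specific share at these genes was 25% (5 of 20 peaks, exact Clopper-Pearson 95% interval 8.66 to 49.1), beside 27.3% in the whole WT list. The KO specific share was 0 of 15 peaks, which allows a share of up to 20.0% by the limit of 3 counts and up to 21.8% by the exact interval, beside 9.59% in the whole KO list. These intervals and limits cover counting error over peaks only. Of the 10 genes, 4 carried a WT specific peak, beside 38.4% of the protein-coding genes with a peak, and none had a KO specific peak, beside 11.3%. With the 10 kb window the WT shares therefore lay near those of the list, and both KO limits include the share of the list.

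The receptor subunit genes came first. Chrna1, on chromosome 2, encodes the alpha subunit, which carries the acetylcholine binding sites. Its promoter peak lay at chr2:73580099-73580975 in WT and at chr2:73580103-73580844 in KO. The deposited fold, the height of a peak over its local background, was 14.8 in the WT library and 12.02 in the KO library. The summit was 66 bases before the start in WT and 67 bases before it in KO. The 2 libraries thus placed it within 1 base of each other. In the sequence above, the nearest E-box, CAGGTG, spans 73 to 68 bases before the start, and 2 further E-boxes of the form CAGCTG span 92 to 87 and 44 to 39 bases before it. Both intervals covered all 250 bases shown.

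A second shared region of Chrna1 lay about 5.2 kb before its start, at chr2:73585373-73585712 in WT and chr2:73585381-73585724 in KO, with a fold of 5.96 and 6.46. The gene end nearest to it belonged to Chrna1os, an RNA gene of the same locus, at 682 bp from the centre of the WT interval. The WT specific peak of Chrna1 lay inside the gene at chr2:73572556-73572729, with a width of 174 bp and a fold of 4.69. It was centred 7.70 kb after the start.

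Chrnb1, on chromosome 11, encodes the beta subunit. Its shared peak had the highest fold of all 15 pairs in each library, 21.3 in WT and 15.4 in KO, and stood at percentile 99.1 of all WT peaks and 94.9 of all KO peaks by fold. It spanned 7 to 631 bases after the start in WT, and 9 bases before to 657 bases after it in KO. The summit lay 506 bases after the start in WT and 524 in KO. The 3 E-boxes in the sequence above therefore lay outside both intervals.

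The 2 WT specific peaks counted at Chrnb1 were chr11:69802869-69803049 (fold 5.51) and chr11:69803806-69804050 (fold 6.02). They lay 7.02 and 7.99 kb before its start. Other genes were closer: the first was centred 15 bp from an end of Fgf11, a fibroblast growth factor gene, and the second 259 bp from an end of G630025P09Rik.

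Chrnd and Chrng lie next to each other on chromosome 1 and encode the delta and the fetal gamma subunit. Neither had a peak in the gene body or within 1 kb of a gene end. The region counted at Chrnd was strong, with a fold of 16.7 in WT (chr1:87180909-87181374) and 14.8 in KO (chr1:87180657-87181499), but its WT centre was 9.46 kb from the gene and 1.96 kb from an end of Prss56, a serine protease gene. That counted at Chrng, at chr1:87213770-87214422 in WT with a fold of 11.5 and at chr1:87213615-87214520 in KO with a fold of 9.44, overlapped the promoters of Eif4e2, a gene of the cap-binding protein family. Both regions were shared, and no peak of either list lay between them, over the 2 receptor genes. Between the 2 regions, the call numbers skip 1 number in the WT list and none in the KO list. A skipped number was read as a removed call.

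Chrne, on chromosome 11, encodes the adult epsilon subunit. It had no peak in the gene. A shared region lay about 3 kb before the start, at chr11:70621993-70622534 in WT with a fold of 8.11 and at chr11:70621970-70622397 in KO with a fold of 5.60. The nearest gene end was that of Gm12315, 766 bp from the WT centre. The promoter of Chrne was the single member promoter with an N-box core, 76 to 71 bases before the start, and no peak of either list covered it.

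**Figure D2:**
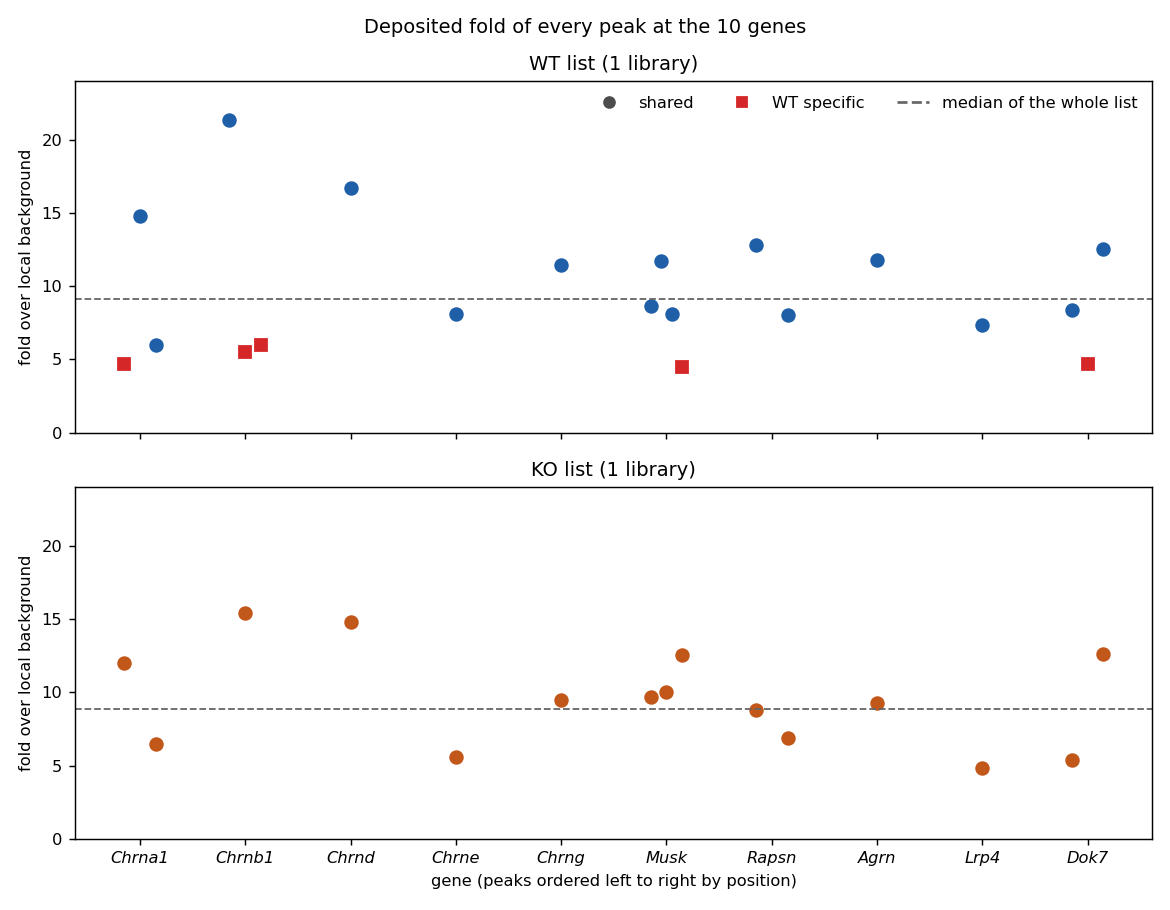
The deposited fold over local background (y axis, no unit) of every peak at each gene (x axis), for the WT library above and the KO library below, with circles for shared peaks, red squares for WT specific peaks and a dashed line at the median of the whole list. The 5 WT specific peaks sit between 4.46 and 6.02, all below the WT median of 9.10, and the peak of Chrnb1 is the highest in both panels.

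The agrin route came next. Agrn, on chromosome 4, encodes agrin, of which muscle makes a form with far less clustering activity than the nerve form. Its region was shared and lay upstream, at chr4:156197832-156198185 in WT and chr4:156197929-156198174 in KO, with a fold of 11.8 and 9.30. The summit was 575 bases before the outermost start in WT and 574 in KO, again within 1 base. The 250 bases before that start had a GC content of 83.6%, beside a median of 52.4% over all promoters, and held the single RUNX core found at a member promoter, TGCGGT, 8 to 3 bases before the start. It lay outside both intervals.

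Lrp4, on chromosome 2, encodes the muscle receptor of agrin. Its single region lay inside the gene, 19.0 kb from the nearer gene end, at chr2:91475939-91476985 in WT and chr2:91476006-91476606 in KO. The WT interval was 1047 bp wide and the KO interval 601 bp. The fold was 7.37 in WT and 4.84 in KO, the lowest of the 15 pairs in the KO library and the lowest but 1 in the WT library. A WT specific peak at chr2:91446569-91446878 (fold 5.62) was 10.7 kb from Lrp4 and so was not counted. The shared region of Chrnd, at 9.46 kb in WT and 9.52 kb in KO, was the farthest that was counted, and the nearest left out was a shared peak 10.1 kb from Musk, with a fold of 8.61 in WT and 9.50 in KO.

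Musk, on chromosome 4, encodes the receptor kinase of the synapse and is the longest of the 10 genes. No peak lay on its promoter. It held 3 shared regions in the gene body, centred 3.00, 53.4 and 73.3 kb after the start in WT. The first lay at chr4:58288845-58289071 with a fold of 8.64 in WT and 9.65 in KO. The second lay at chr4:58339261-58339529 with a fold of 11.7 in WT and 9.99 in KO. The third lay at chr4:58359112-58359315 with a fold of 8.08 in WT and 12.5 in KO. The order of the 3 regions within each library thus differed: the third was the lowest of them in WT and the highest in KO, and among the 15 pairs it ranked 12 by fold in WT and 4 in KO. With 1 library each, no error can be given for these ranks. All 3 were narrow, with widths of 197 to 269 bp over both lists. The WT specific peak, at chr4:58384136-58384385 with a fold of 4.46, lay 6.41 kb beyond the gene and had the lowest fold of the 20 WT peaks.

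Dok7, on chromosome 5, encodes the adaptor that activates MuSK from the cytoplasm. A shared region in the gene, at chr5:35073908-35074375 in WT and chr5:35073844-35074402 in KO, had a fold of 12.5 in WT and 12.6 in KO, with the summits 17 bp apart. A shared region upstream was wide in WT (chr5:35054578-35055422, 845 bp) and narrow in KO (chr5:35055161-35055421, 261 bp). Its fold was 8.34 in WT and 5.36 in KO, and its summits were 580 bp apart, the largest distance among the 15 pairs, whose median was 18 bp (30 bp over all 24065 pairs of 1 WT and 1 KO interval). Under a reciprocal overlap of 50% it was the single pair that no longer counted as shared. The WT specific peak of Dok7, at chr5:35070346-35070678 with a fold of 4.66, lay inside the gene, 3.17 kb from the shared KO interval beside it.

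Rapsn, on chromosome 2, encodes the scaffold that binds the receptors to each other. Its shared region lay at a gene end, at chr2:91035392-91035823 in WT and chr2:91035475-91036040 in KO. The fold was 12.8 in WT and 8.81 in KO, rank 4 of the 15 pairs in WT and rank 10 in KO. A further shared region, 8.39 kb from the gene with a fold of 8.04 in WT and 6.91 in KO, was centred 100 bp from an end of Psmc3, a proteasome gene.

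The position of the peaks was then summarised. A peak centred within 1 kb of a gene end was found in both lists at 4 of the 10 genes (Chrna1, Chrnb1, Rapsn and Agrn), beside 42.6% of protein-coding genes by WT peaks and 38.8% by KO peaks. Of the 7 genes with a promoter sequence, 2 (Chrna1 and Chrnb1) had a WT peak over the promoter window, and the same 2 a KO peak, beside 31.7% and 29.0% of all genes in the promoter table. This window ran from 250 bases before the start to 50 bases after it. At Chrnb1 the WT peak covered none of the 250 bases before the start, and the KO peak covered 9. Of the 20 WT peaks, 9 were centred in the gene and 8 had another gene's end as their nearest. Of the 5 WT specific peaks, 2 had an end of the member as their nearest, those of Musk and Dok7.

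The RUNX core was found in 1 of the 9 member promoters, beside 18.5% of the 32619 promoters of the table, and the N-box core also in 1, beside 12.1%. An E-box was found in 7 of 9, at all 7 genes, beside 66.2% of all promoters. The AP-1 site was found in 1 of 9, that of Chrna1, 211 to 205 bases before the start, beside 6.78%. These counts concern only the 250 bases before each start. Most member peaks lie elsewhere, and their sequence was not used here.

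**Figure D3:**
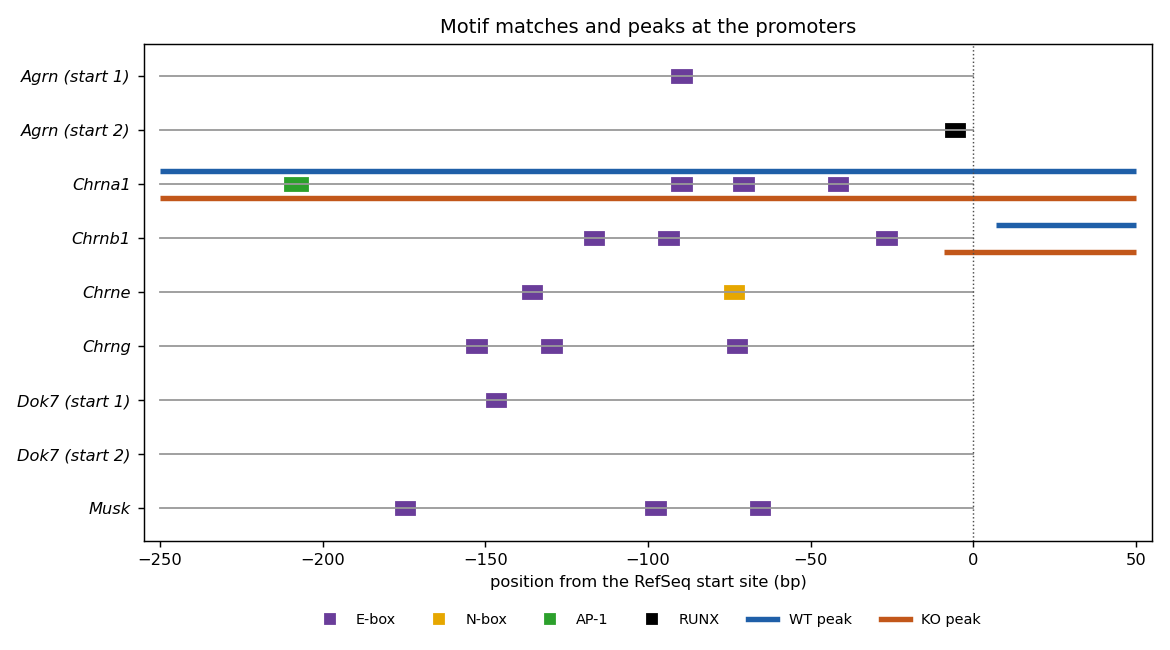
Motif matches (coloured boxes) in the 250 bases before each RefSeq start of the 7 genes with a promoter sequence, with position from the start in bp on the x axis, and the part of this window, up to 50 bases after the start, under a WT peak (blue) or a KO peak (orange). Chrna1 is the promoter that both libraries cover in full, with 3 E-boxes, while the peaks of Chrnb1 begin at its start.

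The WT specific peaks were among the weaker peaks of these genes. Their fold ranged from 4.46 to 6.02 with a median of 4.69, and that of the 15 shared peaks from 5.96 to 21.3 with a median of 11.5, so the ranges met at their ends. Over the whole WT list the medians were 6.497 for specific and 10.4 for shared peaks. The −log10 q of the 5 ranged from 3.23 to 7.46, so that all of them fell in the lowest 2 of 10 equal classes of the WT list, where 71.8% and 59.1% of all peaks were WT specific. Of the 6 member peaks in these classes, 5 were WT specific, and of the 14 member peaks above them none was. At a −log10 q of at least 10, the WT list kept 14 member peaks, all shared, beside 14.4% WT specific peaks in the list, and the KO list kept 11, all shared, beside 4.49% KO specific. In the lowest class of the KO list lay 2 member peaks, those of Chrne and Lrp4, and both were shared. Of all KO peaks in that class, 35.6% were KO specific.

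**Figure D4:**
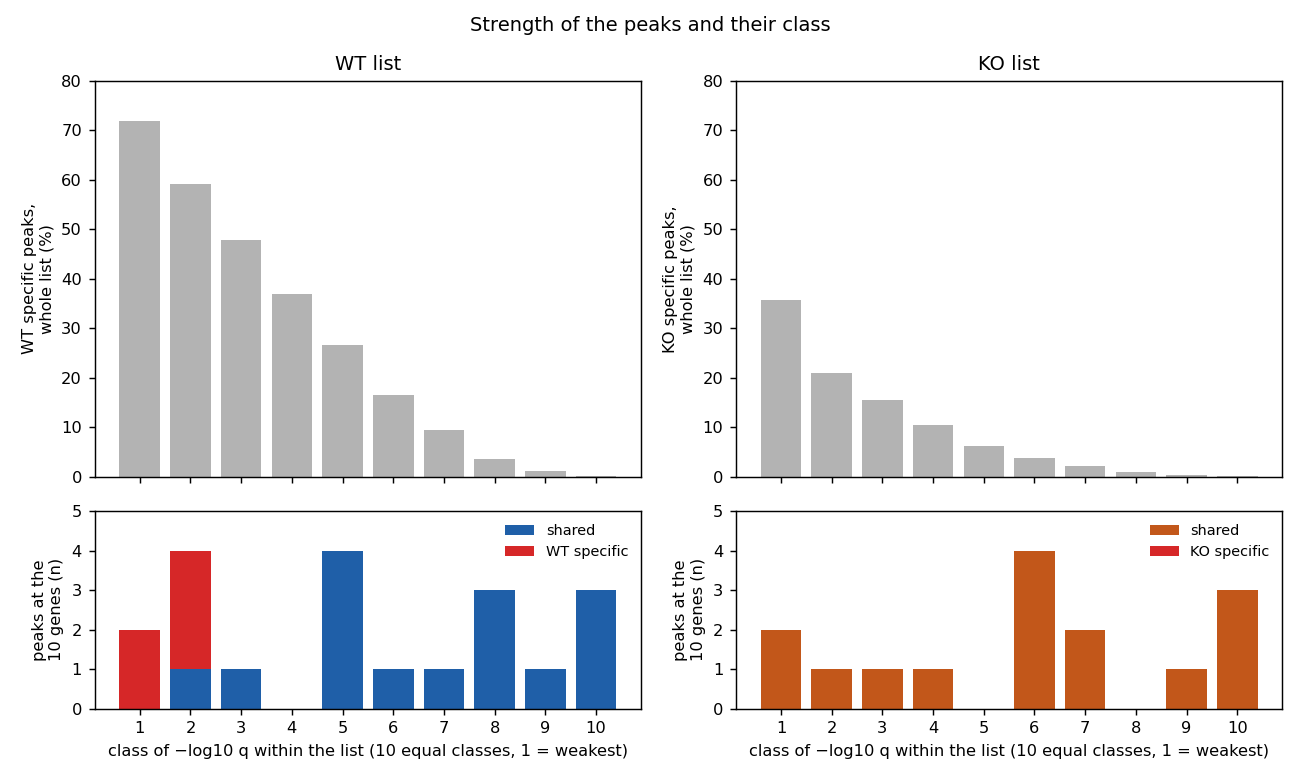
Specific share of the whole list in percent (grey bars, above) and number of peaks at the 10 genes (coloured bars, below) by class of −log10 q (10 equal classes, 1 the weakest) within the WT list (left) and the KO list (right). The 5 WT specific peaks (red) are in classes 1 and 2, where 71.8% and 59.1% of all WT peaks are WT specific.

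The numbering of the KO calls bears on these regions, because the deposited lists skip numbers. The skipped numbers were read as calls that had been removed, though the rule for removal is not given. At 4 of the 5 WT specific peaks the KO peaks to the left and right were not numbered in sequence. Missing were 2 numbers at Chrna1, 3 at Musk, and the same 1 number for both peaks of Chrnb1. For Dok7 none was missing, since the KO intervals on either side carry consecutive numbers. For all WT specific peaks with KO peaks on both sides, a number was missing in 87.1%. Whether a removed call lay on the WT specific peak cannot be read from the lists. In an unlabelled column of the WT specific list, which repeats the start of some peaks, 1 of the 5 carried an entry, that of Chrna1, beside 10.7% of all WT specific peaks.

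Widths of the shared pairs were compared last. The KO interval was narrower in 8 and wider in 7 of the 15 pairs, with a median difference (KO minus WT) of −7 bp. Over all 24065 such pairs it was narrower in 47.4%, with a median difference of 5 bp. The largest differences were −584 bp at the upstream region of Dok7 and −446 bp at Lrp4 on one side, and 377 bp at Chrnd on the other.

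A wider list of 61 genes of the synapse was examined in the same way. A peak in either list was found at 46 of them, beside 65.8% of all protein-coding genes. The same share stands beside the number of genes with a peak in each group below. WT specific peaks made up 48 of 172 WT peaks (27.9%, exact interval 21.3 to 35.2), beside 27.3% of the list, and KO specific peaks 7 of 133 KO peaks (5.26%, exact interval 2.14 to 10.5), beside 9.59%. Both intervals include the share of the whole list. They cover counting error over peaks only, with peaks of the same gene counted as separate, and are not a test. Counted by gene, 31 of the 46 (67.4%) carried at least 1 WT specific peak, beside 38.4% of the protein-coding genes with a peak, and 7 (15.2%) a KO specific one, beside 11.3%. These genes also had more peaks each, with a mean of 3.76 WT peaks per gene beside 2.37 over all protein-coding genes with a peak, and 2.91 KO peaks beside 1.92. The part of the number of peaks in the count by gene was not tested.

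Among 17 partners of agrin, LRP4 and MuSK signalling, all had a peak, 12 had a WT specific and 2 a KO specific peak, against the gene shares of 38.4% and 11.3% given above. By peak, 18 of 54 WT peaks (33.3%) were WT specific, beside 27.3% of the list, and 2 of 38 KO peaks (5.26%) were KO specific, beside 9.59%. Fyn, a Src family kinase, had 3 WT specific among 6 WT peaks and no KO specific among 3 KO peaks. Abl1, a cytoplasmic tyrosine kinase, had 2 WT specific among 6 WT peaks and 1 KO specific among 5 KO peaks. Of 8 genes of the neuregulin, ErbB and ETS route, 7 had a peak, 3 a WT specific (beside 38.4%) and 1 a KO specific peak (beside 11.3%). By peak, 3 of 24 WT peaks were WT specific (12.5%, beside 27.3%) and 1 of 23 KO peaks was KO specific (4.35%, beside 9.59%).

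Among 15 genes of the synaptic cleft, scaffold and membrane, 12 had a peak, 11 a WT specific and 3 a KO specific peak, against the same gene shares of 38.4% and 11.3%. WT specific peaks were 20 of their 64 WT peaks (31.25%, beside 27.3%), and KO specific peaks 3 of 48 KO peaks (6.25%, beside 9.59%). Plec, the gene of the linker plectin, had 4 WT specific among 12 WT peaks. Ncam1, an adhesion molecule gene, had 3 among 9, and neither had a KO specific peak. Sntb1, of the syntrophin scaffold, had 2 WT specific among 8 WT peaks and 1 KO specific among 7 KO peaks. At Dtna, the gene of alpha-dystrobrevin, all 3 WT peaks were WT specific and the KO list held none. The highest fold of the 3 was 8.18, beside a median of 9.10 in the whole WT list. None of them was centred within 1 kb of an end of Dtna. Colq and Col13a1, collagen genes of the synapse, had no peak in either list, nor had Lama4.

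Of 5 glycosylation genes of congenital myasthenia 4 had a peak, 2 of them a WT specific one (beside 38.4%) and none a KO specific one (beside 11.3%). By peak, 2 of 9 WT peaks were WT specific (22.2%, beside 27.3%) and 0 of 7 KO peaks were KO specific (beside 9.59%). Among 5 regulators that respond to muscle activity 3 had a peak and all 3 a WT specific one, beside 38.4% of all genes with a peak. By peak this was 5 of 19 WT peaks (26.3%, beside 27.3%), and none of 14 KO peaks was KO specific (beside 9.59%). Hdac4, a class IIa deacetylase gene, had 3 WT specific among 13 WT peaks, while Myog, the gene of myogenin, and Dach2 had no peak. Of 11 subunits of neuronal acetylcholine receptors, 3 had a peak (Chrna3, Chrna5 and Chrnb2). None of their 2 WT peaks was WT specific (beside 27.3%). Of their 3 KO peaks 1, at Chrna5, was KO specific (33.3%, beside 9.59%).

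**Figure D5:**
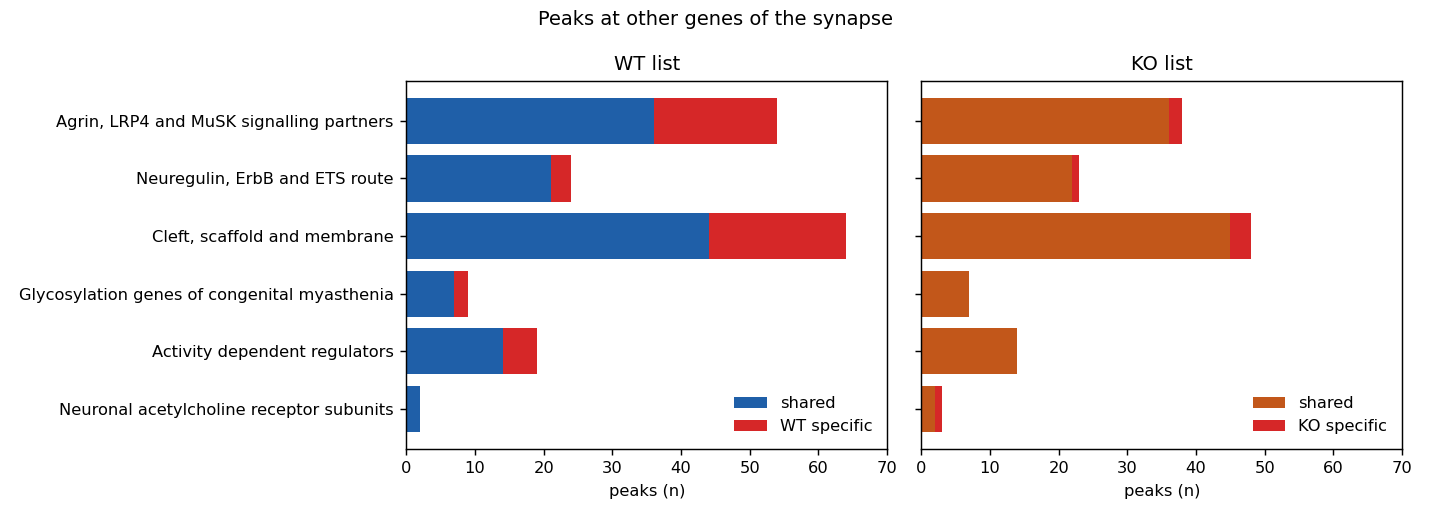
Number of peaks (x axis) at 6 groups of other synapse genes (y axis) for WT (left) and KO (right), with specific peaks in red. The cleft, scaffold and membrane group holds 20 WT specific among 64 WT peaks, and the neuronal receptor subunits hold none among 2. In the whole WT list the WT specific share is 27.3%.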

How the data were processed

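The data were ATAC-seq peak lists in the layout of a narrowPeak file, without header. Per the submitters' processing notes the genome build was mm10. The aligner, the peak caller, the rule for removing calls and the treatment of replicates are not given in the sources used here. Each list has the deposited fold (peak over local background, a ratio), the deposited −log10 p and −log10 q, and a deposited score, which is for nearly all peaks 10 times the −log10 q without its decimals. They depend on the unknown depth of the library, so they describe peaks within a list, and WT and KO values stand side by side without a test.

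Genes and promoters came from RefSeq tables of GRCm38.p6, the assembly of mm10. All 10 genes and the 61 genes of the wider list matched by symbol. Promoter sequences were found for 7 of the 10 genes, and Chrnd, Rapsn and Lrp4 had no entry. Coordinates count from 1, and positions from a start count the start base as 0. Exons were not used here, and some marker genes are not reported here.

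The 10 genes and the wider list were chosen with earlier results of these data known. Named were the 10 genes, Runx1, the neighbours nearest to a member peak and up to 12 genes of the wider list with at least 2 specific peaks. Because 7 genes tied at 2, those with at least 3 were named, and any others after their values were seen. Alternatives in the gene window, the assignment, the overlap, the −log10 q and the motif letters were tried. The software was scipy 1.17.1, pandas 2.3.3 and numpy 2.4.6 under Python 3.11.15. The functions were tested on simulated data and against bedtools 2.31.1, and 7 of 7 checks passed.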

Additional observations from a re-analysis of the deposited data

How the results depend on the processing

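The count of 5 WT specific peaks at 4 of the 10 genes depended on the window. With the gene body only it was 2 at 2 genes (22.2% of 9 WT peaks). With 5 kb on either side it was 2 at 2 genes (14.3% of 14). By the nearest gene end it was 2 at 2 genes (14.3% of 14). By the nearest end of a protein-coding gene it was 3 at 3 genes (14.3% of 21). With 25 kb on either side it was 8 at 6 genes (21.1% of 38). Each of these shares lay below the 27.3% of the whole WT list. At a −log10 q of at least 10 the count was 0 of 14 WT peaks, since all 5 lie below it, beside 14.4% of the list so limited. A reciprocal overlap of 50% gave 6 at 4 genes (30% of the 20 WT peaks, beside 35.0% of the whole list under that rule), and a partner within 500 bp gave 5 (25%, beside 26.4%). No KO specific peak was found under any alternative except the reciprocal overlap, which gave 1 of 15 at 1 gene, the upstream region of Dok7 (6.67%, beside 18.4%). In the wider list, the nearest gene end lowered the WT specific count from 48 to 27 of 105 peaks (25.7%, beside 27.3%). A −log10 q of at least 10 lowered it to 19 of 132 peaks (14.4%, as in the whole list so limited). The same limit lowered the KO specific count from 7 to 1 of 111 (0.901%, beside 4.49%). The RUNX core count of 1 promoter became 0 with TGTGGT alone, beside 13.9% of all promoters. With TGTGG it became 4 of 9, beside 49.4% of all promoters, and Chrna1 then had 4 matches. Those letters were chosen after seeing the sequences. The N-box count of 1 became 0 with CCGGAAG, beside 6.96% of all promoters. The nearest coding gene and the window of 300 bases were also added after seeing the data. That window kept both motif counts at 1, beside 22.3% of all promoters for the RUNX core and 15.0% for the N-box core. No paired analysis was possible because the lists hold values of replicate 1 alone, and no replicate could be left out for the same reason. The unknown depth limits what can be said of weak peaks, since a region absent from a list may have lain under its threshold.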
